A study of Mus musculus with 12 samples.

Results

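A set of 10 maternal chromatin genes was followed through loss of the mRNA decapping factors in mouse eggs. They comprise the remodelling ATPase genes Smarca4 and Smarca5, the bromodomain and WD-repeat genes Brwd1 and Brwd3, the histone H3 lysine methyltransferase genes Suv39h1, Suv39h2, Setdb1, Ehmt1 and Ehmt2, and Ezh2. A probe set (a group of array probes read out as 1 value) was taken when its only gene symbol in the platform annotation was 1 of these 10 names, which gave 25 of 45037 probe sets, covering 9 of the 18193 genes with such a probe set. Suv39h1 was the sole symbol of no probe set in the annotation used here, so it was not analysed. Of the 25 probe sets, 17 passed the filter on low values, a log2 intensity above 5 on at least 3 of the 12 arrays, and these represent 8 genes. The genes were picked with results of these arrays known, among them calls for Smarca4, Brwd1, Brwd3 and Suv39h2 in eggs given both siRNAs against control eggs. Values of that comparison, and which of them pass the threshold, are therefore given as a description, with no p-value printed for a member and nothing read from the calls. Other comparisons that use the arrays of eggs given both siRNAs, or the control arrays, share arrays with that choice. Their p-values for members are printed as a description and are no independent support.

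The 12 Affymetrix arrays measured mRNA of metaphase II eggs, the mature and unfertilised stage, from CF1 mice. Full-grown oocytes were injected with a mixture of Dcp1a and Dcp2 siRNA (double knockdown), with Dcp1a siRNA alone, with Dcp2 siRNA alone, or with a control siRNA, and each of these 4 groups had 3 independent biological replicates. The targeting siRNAs were pools of several duplexes per gene. All oocytes were held in the meiotic inhibitor milrinone for 20 h and then matured without it for 18 h, and each array carried RNA of a pool of 30 eggs. Dcp2 encodes the enzyme that removes the 5′ cap of mRNA and Dcp1a its activator, so the series asks which maternal mRNAs depend on decapping during maturation. A level is a deposited intensity on a scale with a floor of 4.9 units, and a lower level cannot be told apart from a smaller share of that mRNA in the egg's total.

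The full-grown oocyte is transcriptionally silent, so the chromatin enzymes that act in the egg and early embryo are made from stored mRNA. SWI/SNF and ISWI complexes slide or evict nucleosomes with the energy of ATP. SUV39H, SETDB1 and EHMT enzymes methylate lysine 9 of histone H3, the mark of silent chromatin, and EZH2 methylates lysine 27 as the catalytic subunit of Polycomb repressive complex 2.

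The arrays measured eggs with little sign of follicle cells. Of 11 egg marker genes, 10 were above the filter level on all 12 arrays and Figla was on none, while 14 of 16 cumulus and granulosa markers were above it on no array, among them Amh, Fshr, Inha and Foxl2. The others were Nr5a2, above it on all 12 arrays, and Kitl, on 5. Nr5a2 was lower in the double than in the Dcp1a knockdown (-0.81 ± 0.20, adjusted p = 0.0252). Against control it changed by -0.38 ± 0.20 (adjusted p = 0.237, both log2, SE, limma). The summed intensity of those 16 markers, mostly that of Nr5a2, ranged over 1309 to 1572 units in double knockdown eggs, 2440 to 2524 in Dcp1a knockdown eggs and 1758 to 2678 in Dcp2 knockdown eggs, against 1621 to 2227 in control eggs, and its part in the results was not tested. The egg markers summed to 136197 to 145981 units in double knockdown eggs, 119748 to 136402 in Dcp1a knockdown eggs and 93777 to 120690 in Dcp2 knockdown eggs, against 89725 to 122517 in control eggs. The double knockdown thus lay above all control arrays in that sum, with the zona pellucida genes Zp2 (2.08 ± 0.42, adjusted p = 0.0122) and Zp3 (2.14 ± 0.47, adjusted p = 0.0187) higher on the log2 scale (SE, limma), and the part of this shift in the members' values was not tested. The brightest Dcp1a probe set read 517.7 to 1233 units in the double knockdown and 589.3 to 1236 in the Dcp1a knockdown, against 5385 to 12427 in control eggs. Dcp2 read at most 5.0 units in both groups given its siRNA, against 30.4 to 81.8 in control eggs. Not every array was most like its own group. Control replicate 1 correlated at r = 0.978 to 0.988 with the Dcp1a knockdown arrays, against 0.938 and 0.954 with the other control arrays, and it lay nearer to the Dcp1a knockdown mean than to those arrays in 13 of the 17 probe sets, against 70.2% of all probe sets tested. Dcp2 knockdown replicate 2 lay nearer to the Dcp1a knockdown mean than to its own group in 12 of 17, against 68.9% of all.

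**Figure D1:**
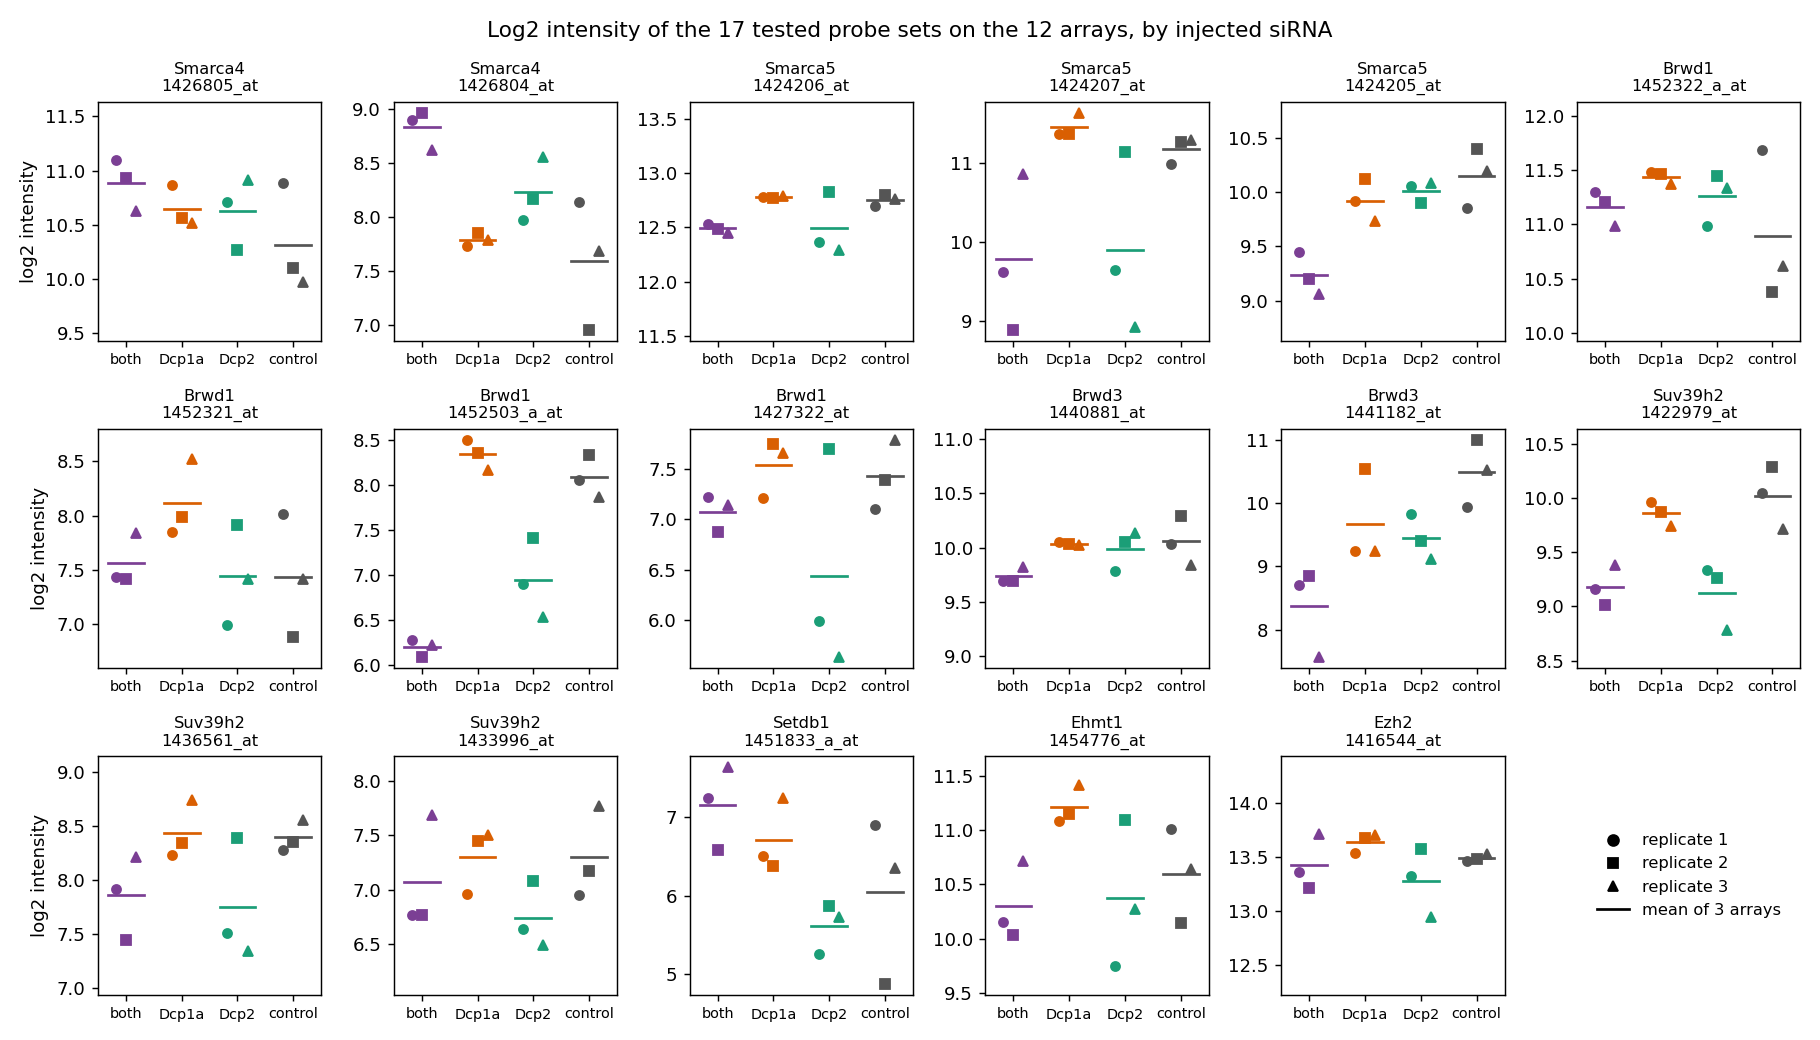
Log2 intensity (vertical axes) of the 17 tested probe sets by injected siRNA, with 3 arrays per group as points (marker shape gives the replicate) and the group mean as a line. Brwd1 1452503_a_at is lowest on the 3 double knockdown arrays and Smarca4 1426804_at highest on them, while Ezh2 covers a narrow range.

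Across the members the double knockdown gave a mixed picture. Mean levels of Smarca4 and Setdb1 were higher than in control eggs, the latter with overlap. Those of Smarca5, Brwd3 and Suv39h2 were lower at every tested probe set, though by unequal amounts. Brwd1 was lower at 2 of 4 probe sets, and Ehmt1 and Ezh2 changed by less than 1 SE. Of the 17 probe sets, 5 had an adjusted p under 0.05 in the limma fit over all 11593 probe sets, 1 of them higher and 4 lower. Over the whole array 8.72% were called, 6.62% higher and 2.1% lower, and since this comparison had a part in choosing the genes, nothing is read from the difference. Groups did not overlap in 9 of the 17, 1 higher (12.9% of all tested) and 8 lower (11.8%). The median log2 change was -0.30 for the 17, against -0.02 for all tested. In the Dcp1a knockdown against control 0 of 17 were called (0.0518% of all tested), with a smallest adjusted p of 0.853 and with 0 at an unadjusted p under 0.05 (4.92% of all tested). In the Dcp2 knockdown against control 0 of 17 were called (0.0173% of all tested), with a smallest adjusted p of 0.264, and 7 of 17 had an unadjusted p under 0.05 (11.1% of all tested). In 3 of the 17, Brwd1 1452503_a_at, Brwd3 1441182_at and Suv39h2 1422979_at, every Dcp2 knockdown array lay below every control array (5.21% of all tested). The 3 comparisons share their control arrays.

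**Figure D2:**
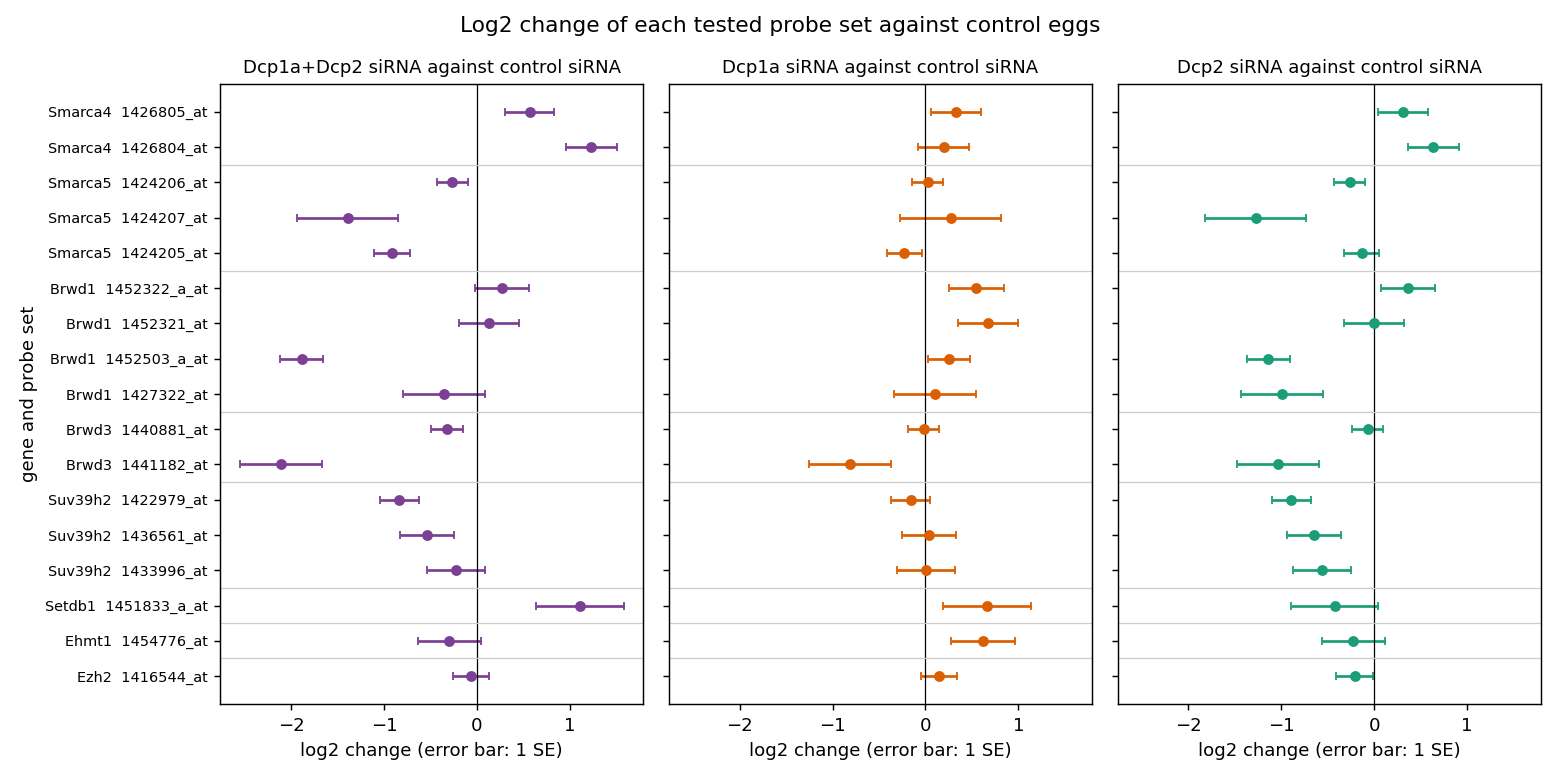
Log2 change against control eggs (horizontal axes) for each tested probe set (rows, grouped by gene) in the double, Dcp1a and Dcp2 knockdowns, as fitted means with 1 SE. In the double knockdown the 4 Brwd1 probe sets run from -1.89 to 0.27, and in the Dcp1a knockdown 13 of 17 points lie above 0, as do 62.1% of all tested probe sets (9 of 17 after median centring or quantile normalization).

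Smarca4 encodes BRG1, an ATPase of the SWI/SNF complex whose maternal supply is needed in the mouse for genome activation in the embryo. By probe set 1426804_at it had 478.3, 500.1 and 394.8 units in the double knockdown, 212.7, 231.5 and 221.6 in the Dcp1a knockdown, and 251.6, 287.9 and 377.4 in the Dcp2 knockdown, against 282.4, 124.5 and 205.8 in control eggs. Every double knockdown array was above every array of the other 3 groups. The log2 change from control was 1.24 ± 0.28 (SE) in the double knockdown, a 2.35-fold higher level, and 0.64 ± 0.28 in the Dcp2 knockdown (adjusted p = 0.425, limma). The double knockdown was higher than the Dcp1a knockdown by 1.04 ± 0.28 on the log2 scale (adjusted p = 0.0329, limma).

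The other Smarca4 probe set, 1426805_at, was bright in all groups. It had 2192, 1953 and 1587 units in the double knockdown, 1869, 1515 and 1464 in the Dcp1a knockdown, and 1674, 1236 and 1932 in the Dcp2 knockdown, against 1890, 1097 and 1003 in control eggs. Here the groups overlapped, because control replicate 1 lay within the range of the double knockdown. Its log2 change in the double knockdown was 0.57 ± 0.27 (SE), and 0.85 without control replicate 1, so both Smarca4 probe sets had their highest mean in the double knockdown and their lowest in control eggs, with the response 0.67 ± 0.24 larger at 1426804_at (log2, SE). The call of 1426804_at against control was lost when control replicate 2 (0.92), double knockdown replicate 1 (1.20) or double knockdown replicate 2 (1.17) was left out. That call was also lost without the filter on low values and with the variance taken from the groups compared alone. The call of 1426804_at against the Dcp1a knockdown was lost without any 1 of the 3 Dcp1a knockdown arrays or double knockdown replicate 1 or 2, with log2 changes of 0.97 to 1.07. Without the filter it was lost too.

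Smarca5 encodes SNF2H, an ATPase of ISWI complexes, which space nucleosomes. By 1424205_at it had 696.3, 587.9 and 535.1 units in the double knockdown, 964.2, 1112 and 851.0 in the Dcp1a knockdown, and 1065, 955.5 and 1087 in the Dcp2 knockdown, against 927.3, 1350 and 1168 in control eggs. The double knockdown lay below all the other 9 arrays, which overlapped with each other. The log2 change from control was -0.91 ± 0.19 (SE) in the double knockdown. The double knockdown was also lower than the Dcp1a knockdown, by -0.69 ± 0.19 (adjusted p = 0.0401), and than the Dcp2 knockdown, by -0.78 ± 0.19 (adjusted p = 0.0331, both log2, SE, limma). The call against control was lost when control replicate 2 (-0.79) or double knockdown replicate 2 (-0.90) was left out and under cyclic loess normalization (-0.82). It was also lost with the variance taken from the groups compared alone. The call against the Dcp1a knockdown was lost without any 1 of the 3 double or the 3 Dcp1a knockdown arrays or Dcp2 knockdown replicate 1, with changes from -0.79 to -0.59. It was also lost after median centring (-0.61), cyclic loess (-0.48) or quantile normalization (-0.56), and without the filter on low values. The call against the Dcp2 knockdown was lost without any 1 of the 3 double or the 3 Dcp2 knockdown arrays or Dcp1a knockdown replicate 1, with changes from -0.88 to -0.69. Quantile normalization (-0.89) and cyclic loess (-0.84) lost it as well, as did leaving out the filter or taking the variance from the groups compared alone.

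A second Smarca5 probe set followed Dcp2 siRNA in most arrays. By 1424207_at the gene had 785.0, 474.3 and 1848 units in the double knockdown, 2639, 2622 and 3173 in the Dcp1a knockdown, and 802.3, 2239 and 487.6 in the Dcp2 knockdown, against 2030, 2447 and 2496 in control eggs. Of the 6 arrays given Dcp2 siRNA, 4 had at most 802.3 units, while double knockdown replicate 3 had 1848, below all control arrays, and Dcp2 knockdown replicate 2 lay within their range. The log2 changes from control were -1.39 ± 0.54 in the double knockdown and -1.27 ± 0.54 in the Dcp2 knockdown (SE; adjusted p = 0.425 for the second, limma). Without double knockdown replicate 3 the first was -1.92. Against the Dcp1a knockdown the double knockdown differed by -1.67 ± 0.54 (adjusted p = 0.0698, limma), with an adjusted p of 0.0202 without double knockdown replicate 3, 0.0244 and 0.0465 without Dcp2 knockdown replicate 2 or 3, and 0.0440 under median centring. Leaving out a Dcp2 knockdown array kept the difference itself at -1.67. The brightest probe set, 1424206_at, moved little, with 5930, 5740 and 5599 units in the double knockdown, 7035, 6970 and 7074 in the Dcp1a knockdown, and 5264, 7249 and 5006 in the Dcp2 knockdown, against 6652, 7106 and 6951 in control eggs. The double knockdown arrays lay below all control arrays, with a log2 change of -0.26 ± 0.17 (SE). All 3 Smarca5 probe sets thus had negative changes in the double and in the Dcp2 knockdown, over a range of -1.39 to -0.26 in the first and -1.27 to -0.13 in the second. The remaining probe set, 1440048_at, read at most 5.0 units on every array.

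Brwd1 encodes a bromodomain and WD-repeat protein that mice need for female fertility. Its probe set 1452503_a_at separated the groups most widely, with 77.5, 68.3 and 75.1 units in the double knockdown, 363.2, 327.7 and 287.2 in the Dcp1a knockdown, and 119.5, 170.5 and 92.5 in the Dcp2 knockdown, against 265.9, 324.4 and 233.2 in control eggs. The order was double knockdown, Dcp2 knockdown and then the other 2 groups, which overlapped, and no array of one step reached the next. Against control eggs the log2 change was -1.89 ± 0.23 (SE) in the double knockdown, 3.70-fold lower, -1.14 ± 0.23 in the Dcp2 knockdown (adjusted p = 0.264) and 0.25 ± 0.23 in the Dcp1a knockdown (adjusted p = 0.858, limma). The double knockdown was lower than the Dcp1a knockdown by -2.14 ± 0.23, or 4.41-fold (adjusted p = 0.000242, limma). The double knockdown differed from the Dcp2 knockdown by -0.75 ± 0.23 (adjusted p = 0.0934, limma), with -0.96 and adjusted p = 0.0360 without Dcp2 knockdown replicate 3, and with adjusted p of 0.0320 after median centring, 0.0283 after quantile normalization and 0.0439 after cyclic loess. The calls against control and against the Dcp1a knockdown were kept under all 22 alternatives tried, with log2 changes of -2.0 to -1.76 and of -2.23 to -2.01.

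The difference between the Dcp2 and the Dcp1a knockdown uses no double knockdown or control array for its means, although its variance is pooled over all 12 arrays and the probe set was singled out with earlier results of these arrays known. For 1452503_a_at it was -1.39 ± 0.23 (log2, SE), with groups that did not overlap and an unadjusted p of 8.16e-05 that became 0.0666 after adjustment over 11593 probe sets (limma). Without Dcp2 knockdown replicate 2 the change was -1.63 and the adjusted p 0.0168. Of the 17 probe sets 0 were called in this comparison, against 0.0604% of all tested, while 7 of 17 had an unadjusted p under 0.05 against 22.1% of all tested, and in 4 of 17 the Dcp2 knockdown lay below the Dcp1a knockdown without overlap (22% of all tested). Without Dcp2 knockdown replicate 2 the count of called probe sets was 6, all lower, among 1866 over the whole array.

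No other tested Brwd1 probe set repeated the full order of groups seen at 1452503_a_at. The brightest, 1452322_a_at, had 2510, 2356 and 2031 units in the double knockdown, 2856, 2829 and 2653 in the Dcp1a knockdown, and 2030, 2796 and 2579 in the Dcp2 knockdown, against 3294, 1325 and 1566 in control eggs. Control replicate 1 was here the highest of the 12 arrays and the other 2 control arrays the lowest. The log2 change in the double knockdown was 0.27 ± 0.30 (SE) with that array and 0.67 without it. In the Dcp1a knockdown it was 0.55 ± 0.30 (adjusted p = 0.853) with that array and 0.95 (adjusted p = 0.0337, limma) without it.

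Probe set 1452321_at showed no separation of the double knockdown from control, with 173.5, 171.2 and 229.0 units in the double knockdown, 230.0, 253.1 and 367.0 in the Dcp1a knockdown, and 127.4, 240.5 and 171.2 in the Dcp2 knockdown, against 259.1, 117.6 and 171.2 in control eggs. Its log2 change was 0.13 ± 0.32 (SE) in the double knockdown. Probe set 1427322_at had 149.1, 117.2 and 140.9 units in the double knockdown, 147.9, 214.8 and 202.3 in the Dcp1a knockdown, and 63.5, 208.4 and 49.5 in the Dcp2 knockdown, against 137.6, 168.3 and 221.8 in control eggs. This probe set was lowest on Dcp2 knockdown replicates 1 and 3, not in the double knockdown, and its change was -0.99 ± 0.44 in the Dcp2 knockdown (adjusted p = 0.425, limma) and -0.35 ± 0.44 in the double knockdown (log2, SE). The double knockdown was above the Dcp2 knockdown by 0.64 ± 0.44 (adjusted p = 0.605), or 1.27 without Dcp2 knockdown replicate 2 (adjusted p = 0.0189, limma). The Dcp2 against the Dcp1a knockdown gave -1.10 ± 0.44 (adjusted p = 0.207), or -1.73 without that array (adjusted p = 0.0218, limma). The difference in response between 1452503_a_at and the other 3 was -2.16 ± 0.38 against 1452322_a_at, -2.01 ± 0.41 against 1452321_at and, written the other way round, 1.53 ± 0.39 for 1427322_at (log2, SE, from differences taken within each array). The suffix _a_at is the manufacturer's mark for a probe set whose probes fit several transcripts of 1 gene, and which transcripts each of these probe sets reads was not tested. The dim Brwd1 probe set 1433955_at, left out by the filter, read 6.0, 5.8 and 8.3 units in the double knockdown, 13.4, 21.4 and 23.3 in the Dcp1a knockdown and 6.0, 15.2 and 5.9 in the Dcp2 knockdown, against 10.9, 12.7 and 29.5 in control eggs.

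**Figure D3:**
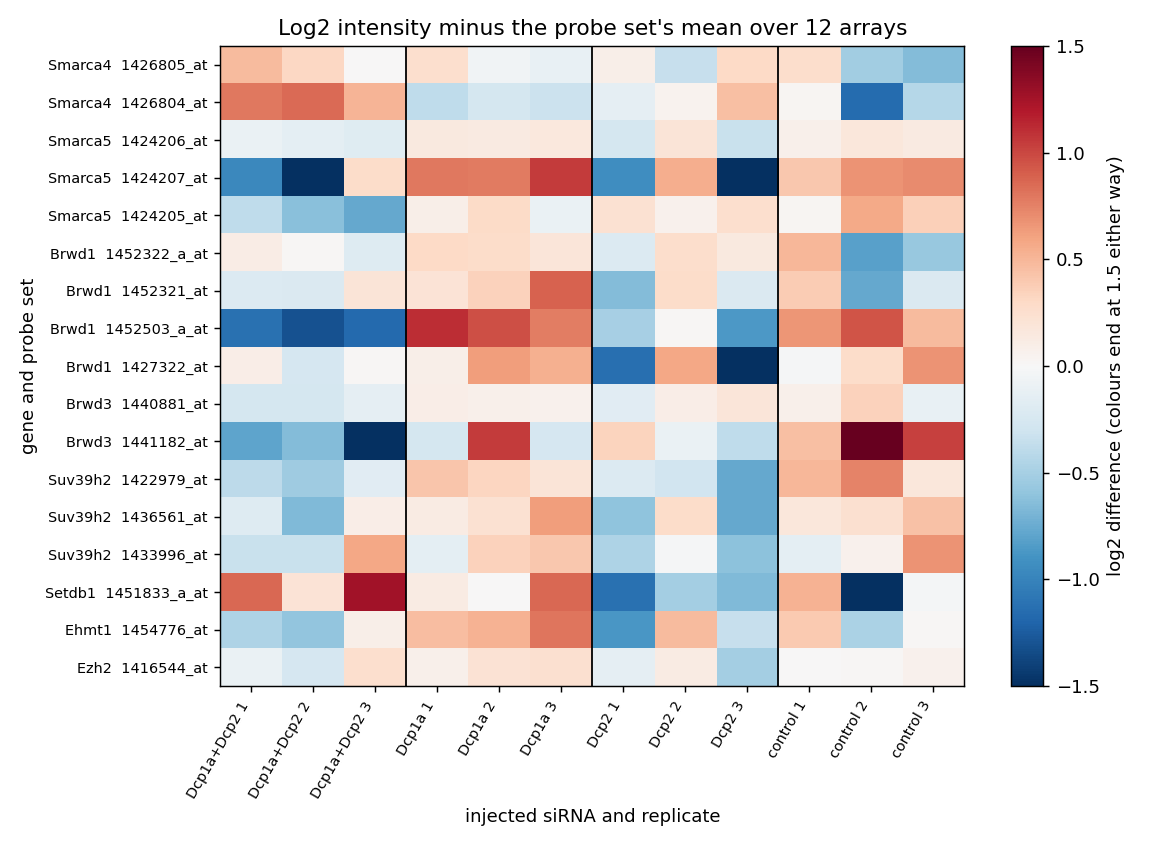
Log2 intensity of each tested probe set minus its own mean over the 12 arrays (colour), with arrays as columns and probe sets as rows. Dcp2 knockdown replicate 2 is above the other Dcp2 knockdown arrays in 11 of 17 rows (48.8% of all tested probe sets), and the Brwd1 rows differ from each other in the double knockdown.

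Brwd3, the X-linked paralogue of Brwd1, also had probe sets with unequal responses. By 1441182_at it had 418.5, 459.2 and 190.6 units in the double knockdown, 603.6, 1494 and 608.8 in the Dcp1a knockdown, and 913.9, 675.9 and 553.9 in the Dcp2 knockdown, against 986.3, 2046 and 1469 in control eggs. The double knockdown lay below every other array, the Dcp2 knockdown lay below all control arrays, and the Dcp1a knockdown overlapped with control through replicate 2. The log2 changes from control were -2.11 ± 0.44 in the double knockdown, a 4.33-fold lower level, -1.04 ± 0.44 in the Dcp2 knockdown (adjusted p = 0.425) and -0.81 ± 0.44 in the Dcp1a knockdown (SE, adjusted p = 0.853, limma). The double knockdown differed by -1.30 ± 0.44 from the Dcp1a knockdown (adjusted p = 0.0779) and by -1.07 ± 0.44 from the Dcp2 knockdown (adjusted p = 0.250, limma). The call against control was lost without control replicate 2, the brightest array, with a change of -1.86. It was also lost without the filter on low values and with the variance taken from the groups compared alone.

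The second Brwd3 probe set, 1440881_at, stayed in a narrow range, with 827.9, 826.9 and 906.1 units in the double knockdown, 1064, 1049 and 1041 in the Dcp1a knockdown, and 882.4, 1059 and 1121 in the Dcp2 knockdown, against 1049, 1257 and 917.3 in control eggs. The double knockdown was below all control arrays, by -0.32 ± 0.17 (log2, SE). The response of 1441182_at was thus larger by -1.79 ± 0.53 (log2, SE). The other 2 Brwd3 probe sets read at most 17.6 units.

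Suv39h2 encodes an H3 lysine 9 methyltransferase of pericentric heterochromatin. By 1422979_at it had 570.3, 515.0 and 665.6 units in the double knockdown, 999.5, 933.8 and 856.4 in the Dcp1a knockdown, and 647.4, 611.7 and 439.6 in the Dcp2 knockdown, against 1058, 1251 and 838.9 in control eggs. All 6 arrays given Dcp2 siRNA, alone or with Dcp1a siRNA, lay below all 6 arrays without it. The log2 change from control was -0.84 ± 0.21 (SE) in the double knockdown, 1.78-fold lower, and -0.89 ± 0.21 in the Dcp2 knockdown (adjusted p = 0.425, limma), and the double knockdown differed from the Dcp2 knockdown by only 0.06 ± 0.21 (adjusted p = 0.957). Against the Dcp1a knockdown the double knockdown changed by -0.68 ± 0.21 (adjusted p = 0.0603) and the Dcp2 knockdown by -0.73 ± 0.21 (adjusted p = 0.201, limma). The first of these passed without control replicate 3 (0.0486), Dcp2 knockdown replicate 3 (0.0399) or double knockdown replicate 3 (0.0440), and the second without Dcp2 knockdown replicate 2 (0.0470). Leaving out control replicate 3 or Dcp2 knockdown replicate 3 kept the first difference at -0.68.

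Groups at the other Suv39h2 probe sets overlapped more. By 1436561_at the gene had 241.4, 174.9 and 296.3 units in the double knockdown, 300.1, 324.8 and 426.3 in the Dcp1a knockdown, and 182.2, 335.2 and 162.8 in the Dcp2 knockdown, against 311.0, 326.9 and 374.4 in control eggs. By 1433996_at it had 108.7, 108.7 and 205.5 units in the double knockdown, 124.3, 175.0 and 181.3 in the Dcp1a knockdown, and 99.5, 135.4 and 89.8 in the Dcp2 knockdown, against 123.7, 143.9 and 218.2 in control eggs. At all 3 probe sets the lowest mean was that of the Dcp2 knockdown and the next that of the double knockdown, with log2 changes from control of -0.89 to -0.56 in the Dcp2 knockdown and of -0.84 to -0.23 in the double knockdown. In the Dcp1a knockdown they ran from -0.16 to 0.04. The call of 1422979_at in the double knockdown was lost without control replicate 2 (-0.70), without double knockdown replicate 1 (-0.82) or 2 (-0.75) and without any 1 of the 3 Dcp1a knockdown arrays, which left its value at -0.84. That call was also lost without the filter on low values and with the variance taken from the groups compared alone.

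Setdb1, a histone H3 lysine 9 methyltransferase that silences retroelements, was dim. By its only tested probe set, 1451833_a_at, it had 151.4, 96.1 and 199.4 units in the double knockdown, 90.7, 83.4 and 151.7 in the Dcp1a knockdown, and 38.3, 58.4 and 52.9 in the Dcp2 knockdown, against 119.5, 29.4 and 81.7 in control eggs. The double knockdown lay above the Dcp2 knockdown without overlap, with a difference of 1.54 ± 0.47 (log2, SE; adjusted p = 0.0943, limma), which passed without control replicate 2 (adjusted p = 0.0197). That array is in neither group, so the difference itself stayed the same. Control eggs spread from 29.4 to 119.5 units and overlapped with each of the other groups, and the log2 change of the double knockdown from them was 1.11 ± 0.47 (SE), or 1.54 without control replicate 1. The other 2 Setdb1 probe sets read at most 6.5 units.

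Ehmt1 and Ehmt2 encode GLP and G9a, which form a heterodimer that mono- and dimethylates histone H3 lysine 9. Ehmt1 had 1142, 1050 and 1680 units in the double knockdown, 2176, 2268 and 2741 in the Dcp1a knockdown, and 858.0, 2184 and 1242 in the Dcp2 knockdown, against 2063, 1131 and 1594 in control eggs. The Dcp1a knockdown lay above all double knockdown and all control arrays, and Dcp2 knockdown replicate 2 was at the level of the Dcp1a knockdown. Against control the log2 changes were -0.30 ± 0.34 in the double knockdown, 0.62 ± 0.34 in the Dcp1a knockdown (adjusted p = 0.853) and -0.23 ± 0.34 in the Dcp2 knockdown (SE, adjusted p = 0.735, limma). The double knockdown differed from the Dcp1a knockdown by -0.92 ± 0.34 (adjusted p = 0.0998), and the adjusted p was 0.0426 without Dcp2 knockdown replicate 2, with the difference itself unchanged. Both Ehmt2 probe sets were near the floor, at most 10.5 units on any array, so the heterodimer's second subunit was not measured above the filter here.

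Ezh2 was the brightest member and its groups differed little. It had 10533, 9490 and 13445 units in the double knockdown, 11873, 13071 and 13302 in the Dcp1a knockdown, and 10239, 12218 and 7878 in the Dcp2 knockdown, against 11304, 11426 and 11784 in control eggs. Its log2 changes from control were -0.06 ± 0.20 in the double knockdown, 0.15 ± 0.20 in the Dcp1a knockdown (adjusted p = 0.898) and -0.21 ± 0.20 in the Dcp2 knockdown (SE, adjusted p = 0.582, limma). Groups did not separate except that the Dcp1a knockdown arrays lay just above the 3 control arrays, as 7.19% of all tested probe sets did.

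Compared gene by gene, some probe sets of 1 gene gave unequal responses. The 5 genes with more than 1 tested probe set form 14 pairs of probe sets, of which 4 had log2 changes of opposite sign in the double knockdown against control, all within Brwd1. The per-array difference between the 2 probe sets did not overlap between double knockdown and control in 6 of 14 pairs. Pairs of other genes on the array were not counted, the 14 pairs share probe sets, and this comparison had a part in choosing the genes. Nothing is therefore read from these counts. Smarca4, Smarca5, Brwd3 and Suv39h2 had 1 sign each in that comparison, with ranges of 0.57 to 1.24, -1.39 to -0.26, -2.11 to -0.32 and -0.84 to -0.23 on the log2 scale.

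The 17 probe sets were highest in the Dcp1a knockdown in 10 cases and lowest there in 0, and lowest in the Dcp2 knockdown in 6 and in the double knockdown in 7. This order was not counted over all tested probe sets, so it cannot be called a trait of the members. The median log2 change of all tested probe sets was 0.09 in the Dcp1a knockdown and -0.11 in the Dcp2 knockdown against control, and -0.18 in the Dcp2 against the Dcp1a knockdown, and all 3 changed sign under median centring, to -0.02, 0.07 and 0.11. The corresponding medians of the 17 were 0.15, -0.26 and -0.57, and after median centring they were 0.03, -0.09 and -0.28. In the Dcp2 against the Dcp1a knockdown 2 of the 17 were above 0 in the deposited values (35.4% of all tested) and 7 under median centring.

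An interaction term asked whether the log2 change with both siRNAs departed from the sum of the changes with each. None of the 17 probe sets departed from additivity at an adjusted p under 0.05 in limma, against 3.93% of all tested, and 1 had an unadjusted p under 0.05 (11.6% of all tested). That was Brwd1 1452503_a_at, at -1.0 ± 0.32 (SE, adjusted p = 0.160, limma). Brwd1 1452322_a_at passed without control replicate 1 (-1.04, adjusted p = 0.0441). Against the Dcp1a knockdown 3 of 17 probe sets passed in the double knockdown, 1 higher and 2 lower (12.1% of all tested, 8.27% higher and 3.79% lower), and 11 lay lower without overlap (27.1% of all tested). Against the Dcp2 knockdown 1 of 17 passed, Smarca5 1424205_at, which was lower (6.37% of all tested, 0.25% lower). These comparisons use the double knockdown arrays that had a part in choosing the genes.

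Other genes of the same complexes and of related chromatin enzymes were counted by their brightest tested probe set, where 8.45% of 6998 genes were called in the double knockdown against control, 6.79% higher and 1.66% lower. Among 19 tested SWI/SNF subunit genes 1 rose and 0 fell (median log2 change 0.00, also the median of all 6998 genes). It was Dpf3, a subunit that reads modified histones, at least 2.79-fold higher (adjusted p = 0.0217, limma), a bound because the mean or median of control eggs was at or under the filter level. None of the 10 ISWI partner genes (median -0.06) or 9 other Polycomb repressive complex 2 genes (median -0.35) passed. Of 13 partners and readers of lysine 9 methylation 1 rose, Morc2a, a partner of the HUSH silencing complex, by at least 1.38-fold (adjusted p = 0.0109; list median -0.29). Of 17 other histone methyltransferase genes 1 rose, the arginine methyltransferase gene Prmt7, by at least 1.22-fold (adjusted p = 0.000142; list median 0.24). None of 15 demethylase genes (median 0.26) and none of 25 other remodeller and bromodomain genes (median -0.26) passed. Dpf3, Morc2a and Prmt7 had a mean log2 above the filter level of 5 in the double knockdown only (6.78, 5.47 and 5.29). They may have passed the filter only through the group where they are high. Their rises and adjusted p are therefore given as a description and are no support.

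The same lists against the Dcp1a knockdown, where 11.5% of genes were called (8.19% higher, 3.32% lower), held falls as well. In the list of other remodellers and bromodomain proteins 0 rose and 3 fell, which were Brd1 (-0.96 ± 0.24), Chd2 (at least 1.20-fold) and Brpf1 (at least 1.52-fold), with adjusted p of 0.0262, 0.0196 and 0.0411 (limma). Among the partners and readers of lysine 9 methylation Morc2a rose and 2 fell, the methyltransferase gene Setdb2 (-1.38 ± 0.39, adjusted p = 0.0440) and Atf7ip2 (at least 2.53-fold, adjusted p = 0.0438), a relative of the SETDB1 cofactor gene Atf7ip. Of the other methyltransferases Prmt7 rose and Setd2, whose product trimethylates H3 lysine 36, fell (-1.07 ± 0.31, adjusted p = 0.0490). Kdm2b, a demethylase gene, rose by 0.56 ± 0.16 (adjusted p = 0.0458) and Dpf3 by at least 3.43-fold (adjusted p = 0.0106, limma). Against the Dcp2 knockdown, with 6.16% of genes called, Dpf3, Brd9 (0.85 ± 0.20), Kdm2b (0.67 ± 0.16), Morc2a and Prmt7 rose and none of these lists' genes fell. The limit given for Dpf3, Morc2a and Prmt7 against control holds in both of these comparisons. It holds likewise for Chd2, whose mean log2 was above the filter level in the Dcp1a knockdown only (5.26). In either single knockdown against control, and between the single knockdowns, none of the 7 lists had a call (limma), where 0.0572%, 0.0286% and 0.0714% of genes were called.

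Likeness over the 12 arrays was taken as Pearson's r with 6787 other named genes, each by its brightest probe set, as a description of arrays that share their groups. Brwd1 1452503_a_at was most like Ncl (0.961), Ccdc171 (0.947) and Crlf3 (0.946). Smarca4 1426804_at was most like Sec24c (0.990), Nup214 (0.981) and R3hdm2 (0.977). Smarca5 1424205_at was most like Rapgef6 (0.940), Proca1 (0.932) and Snx6 (0.928), and Snx6 (0.928) also led for Brwd3 1441182_at, followed by Frmpd2 (0.925) and Trmt13 (0.913). Suv39h2 1422979_at was most like Mrpl16 (0.974), Cntn4 (0.961) and Rbpms (0.936).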

How the data were processed

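RNA of 30 eggs per sample was amplified and hybridised to Affymetrix arrays, per the labels' protocols. The authors deposited 1 intensity per probe set and array on a linear scale, made with GCRMA per the submitters' processing notes. GCRMA corrects background, normalizes between arrays and pulls dim signals to a floor (55.6% of values at or under 5 units), so levels are relative within an array. The number of arrays limits precision. No 2 arrays were identical.

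Values were taken to log2, and 64 control probe sets were left out. Probe sets with log2 above 5 (32 units) on at least 3 of 12 arrays were tested, 11593 of 45037. Symbols came from the platform annotation, which gave 932 probe sets several symbols and 9160 none. All comparisons came from 1 fit of limma 3.58.1 in R 4.3.3 (group means, 12 arrays, eBayes without trend, 8 residual and 2.97 prior degrees of freedom), two-sided, with Benjamini-Hochberg adjustment over all tested probe sets and a threshold of 0.05. P-values measure the spread between pools of eggs. Where the dimmer group's mean or median log2 was at or under 5, the fold is a bound, with values of that group under 5 set to 5.

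Members, gene lists, the naming rule and alternatives were chosen with earlier results of these data known. All members are named, and from each list up to 4 called genes per comparison with the smallest adjusted p. Sequences of array probes were not used here. Alternatives changed the filter, floor, normalization, variance model, block and arrays used. Likeness covers the 3 genes with the highest correlation for each member probe set called.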

Additional observations from a re-analysis of the deposited data

How the results depend on the processing

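Counts of the 17 probe sets called moved with single arrays and settings, and the causes were not tested. Whole-array counts of called probe sets are given after each count as "all". In the double knockdown against control (5 called, all 1011) the count was 2 (all 527) without the filter on low values, when 45037 probe sets were adjusted for. It was 1 (all 277) with the variance taken from the groups compared. Leaving out 1 array gave 1 to 8. The count was 1 without control replicate 2 (all 460) and 8 without control replicate 1 (all 2451). It was 2 and 3 without double knockdown replicates 2 and 1 (all 444 and 534). Against the Dcp1a knockdown (3, all 1398) it was 1 without the filter (all 842) and 6 with the variance of the groups compared (all 2779). Without 1 array it was 1 to 5. Against the Dcp2 knockdown (1, all 739) it was 0 without the filter (all 489), 2 under median centring (all 531) and 0 to 2 without 1 array. Leaving out 1 array gave 0 to 1 in the Dcp1a knockdown against control, 0 in the Dcp2 knockdown against control, 0 to 6 in the Dcp2 against the Dcp1a knockdown, and 0 to 1 for the interaction (0 each in the fit reported). The highest of these, 1, 6 and 1, came with 372, 1866 and 626 called over the whole array. With control replicate 1 and Dcp2 knockdown replicate 2 both left out, an alternative chosen after seeing the data, the counts were 9 in the double knockdown, 1 in the Dcp1a knockdown and 8 in the Dcp2 knockdown against control. Over the whole array calls rose too, to 3215, 627 and 2419 of 11593. The member counts were 6 in the double against the Dcp1a knockdown (all 2672) and 2 in the double against the Dcp2 knockdown (all 726). They were 8 in the Dcp2 against the Dcp1a knockdown (all 2474) and 1 for the interaction (all 683). With the replicate number as a block, the count was 4 in the double knockdown against control (all 819). It was 1 against the Dcp1a knockdown (all 1091), 0 against the Dcp2 knockdown (all 615), and 0 in the other comparisons. The calls lost under the block were Suv39h2 1422979_at against control, Smarca4 1426804_at (adjusted p = 0.0606, limma) and Smarca5 1424205_at (0.0736) against the Dcp1a knockdown, and Smarca5 1424205_at against the Dcp2 knockdown (0.0727). The numbers were not taken as pairs, since 9 of 18 same-numbered pairs had deviations from their group means correlated over 0.1 (range -0.685 to 0.394), and not every array correlated best with its own number. Over 119 log2 changes and 22 alternatives, 52 of 2601 values lost a call, 57 gained one and 0 reversed a call. The 8 untested probe sets, Ehmt2 among them, read at most 29.5 units, under the filter level, and their differences were not tested.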
